A study of Mus musculus with 6 samples.

Results

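The Maf, Bach and Nfe2 factors are basic leucine zipper (bZIP) proteins, which bind DNA only as dimers. Small Maf proteins (Maff, Mafg and Mafk) lack a transactivation domain of their own and serve as shared partners, whereas Maf itself, also known as c-Maf, is a large Maf protein with such a domain. Their partners carry a cap'n'collar region next to the zipper: Nfe2, Nfe2l1 and Nfe2l2 mostly activate, and Bach1 and Bach2 mostly repress. The dimers read Maf recognition elements and the related antioxidant response elements, and through them they act on globin and platelet genes, on haem and iron handling, on detoxification and on lymphoid fate.

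All 9 genes were looked up by symbol in the array annotation, which gave 19 probe sets of 45037 tested. A probe set is the group of oligonucleotides on the array that together give 1 value for a transcript. The family was chosen by a measured value: Maf had been seen to have separated groups in the comparison described here, so its values are a description with no test. The other 8 genes were taken as its relatives. Maf had 6 probe sets, Bach2 had 3, Bach1, Mafg and Nfe2l2 had 2 each, and Maff, Mafk, Nfe2 and Nfe2l1 had 1 each.

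Haematopoietic stem cells (HSCs) of SCL-tTA H2B-GFP transgenic mice were compared. In these mice the transactivator tTA-S2 is made from the endogenous scl locus and drives a histone H2B-GFP fusion, which limits the label to HSCs and progenitors, and doxycycline stops its synthesis. After 170 days of doxycycline, bone marrow cells that were Lin Neg, Sca1+, cKit+, CD150+, CD48 Neg and CD34 Neg were sorted into GFP+ label-retaining cells (LRC, 3 samples) and GFP Neg cells (non-LRC, 3 samples). Both groups thus shared the transgenes, the drug and the gate, and differed in GFP alone; a GFP Neg cell may have diluted the label by dividing or may never have carried it. Age, sex and the number of mice behind a sample are not given in the sources used here.

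Each sample was read on 1 array, as log2 values in which a difference of 1 is a 2-fold change. Array medians lay between 4.33 and 4.39, and the 25th percentile lay between 2.82 and 3.02. The HSC markers Kit (group means 9.05 and 9.07), Procr (10.28 to 11.10), Hlf (10.70 to 11.54), Mecom (9.66 to 10.38), Fgd5 (7.50 to 8.49) and Slamf1 (6.24 to 8.83) were bright on every array. Mean log2 levels of marker lists for macrophages and monocytes (3.82 to 4.26), T and NK cells (3.00 to 3.46) and endothelium (4.12 to 4.74) overlapped between the groups. So did those for B and plasma cells (3.44 to 3.90), erythroid cells (3.52 to 4.71), megakaryocytes (4.66 to 5.71) and stroma (4.21 to 4.73). The granulocyte and mast cell list was brighter (5.39 to 6.58), highest on non-LRC replicate 1, and overlapped too. The macrophage genes Csf1r (4.03 to 4.47) and Adgre1 (1.82 to 3.04) were dim and Lyz2 (7.75 to 9.72) was bright. LRC replicate 1 had the lowest correlations with other arrays (0.901 to 0.919, across probe sets), and the spiked hybridization controls averaged 11.24 on LRC replicate 1 and 11.02 on LRC replicate 3, above the other 4 arrays (10.58 to 10.70). In bulk samples, fewer cells that express a gene and less of its RNA per cell cannot be told apart.

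To show what the dimers read, promoters of the family were searched for the antioxidant response element core, spelled TGACNNNGC, on both strands. RefSeq promoter sequences (build GRCm38.p6, from 250 bases before to 50 after a start) were at hand for 7 of the 9 genes, in 13 windows. Maf and Nfe2 had no window and were not searched. The core was held by 4 genes, each in 1 window. These were all 3 small Maf genes and Nfe2l2. Counted by window, 4 of 13 held the core, against 12.4% of 32851 windows of the same length. Some genes had several windows, and whether the family holds the core more often was not tested. The core is in capitals and all sequences run 5′ to 3′ along the gene's own strand. For Mafg and Mafk the core lies on the opposite strand and is seen as its reverse complement.
Maff, chr15:79346493-79346533, plus strand: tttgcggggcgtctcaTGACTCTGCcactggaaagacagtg
Mafg, chr11:120633745-120633785, minus strand: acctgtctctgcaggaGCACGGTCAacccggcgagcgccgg
Mafk, chr5:139791507-139791547, plus strand: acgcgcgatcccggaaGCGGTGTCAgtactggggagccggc
Nfe2l2, chr2:75704879-75704913, minus strand: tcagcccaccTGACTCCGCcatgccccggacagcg

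A longer element, the Maf half-site joined to an AP-1 core and searched on both strands, was in 0 of the 13 windows and in 0.423% of all windows. The AP-1 core alone (TGANTCA, part of that element and able to overlap the antioxidant core) was also in 0 of the 13, against 7.81% of all windows. A match describes letters only and says nothing of occupancy in these cells. Levels of the 4 genes that held the antioxidant core are given below. None of their probe sets had separated groups, against 8.28% of all 45037. With so few probe sets this says nothing of the element.

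At Maf, which encodes a regulator of T helper cell, macrophage and lens genes, the 6 probe sets disagreed. Levels were lower in LRC at 2 and had a higher LRC mean at the other 4. Probe set 1447849_s_at read 5.96, 5.03 and 5.84 in non-LRC replicates 1 to 3, and 1.93, 3.27 and 1.78 in LRC replicates 1 to 3. No LRC array reached the lowest non-LRC array, and LRC replicates 1 and 3 were near the bottom of their arrays' range. The means were 5.61 ± 0.51 in non-LRC and 2.33 ± 0.82 in LRC (SD, n = 3 each), a difference of -3.28 (moderated SE 0.47). Leaving out both LRC arrays with bright hybridization controls, a setting chosen after seeing the data, gave -2.34, and the control level as a covariate gave -2.61.

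Probe set 1435828_at showed the same direction with less room between groups. It read 5.60, 3.15 and 5.28 in non-LRC and 2.87, 2.25 and 2.25 in LRC. The groups did not overlap, but non-LRC replicate 2 was only slightly above LRC replicate 1, and the gap between them was smaller than the spread within non-LRC. The difference was -2.22 (SE 0.65), or -2.98 without non-LRC replicate 2 and -2.43 without LRC replicates 1 and 3. Every LRC value lay below the 25th percentile of its own array (3.02, 2.82 and 2.93 for LRC replicates 1, 2 and 3). The value 2.25 of LRC replicate 3 was shared to the last digit with other probe sets, 132 in all on that array. The value 5.60 of non-LRC replicate 1 was likewise identical in 14 probe sets of its array, Maf 1456060_at among them.

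The brightest Maf probe set gave no such pattern. Probe set 1456060_at read 5.60, 7.84 and 7.17 in non-LRC and 7.34, 7.28 and 7.41 in LRC, so all LRC values fell inside the non-LRC range. Its difference was 0.48 (SE 0.55), or -0.16 without non-LRC replicate 1. Probe set 1447945_at was nearly level, at 5.85, 5.66 and 5.85 against 6.24, 5.69 and 5.75, a difference of 0.11 (SE 0.22), or -0.14 with the control level as a covariate. These 2 probe sets and the 2 separated ones carry the same gene symbol, and which part or form of the transcript each one detects was not analysed here.

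At the last 2 Maf probe sets the LRC mean was higher, with overlap. Probe set 1437473_at read 3.65, 6.02 and 5.15 in non-LRC and 6.84, 6.26 and 4.89 in LRC (difference 1.06, SE 0.74). Probe set 1444073_at read 2.11, 2.46 and 2.18 in non-LRC and 5.04, 2.10 and 4.22 in LRC (difference 1.54, SE 0.72). There the high arrays were LRC replicates 1 and 3, the same 2 with bright hybridization controls, and without them the difference was -0.15. With the control level as a covariate it was 0.08 (SE 0.35). The mean of all 6 Maf probe sets gave a difference of -0.39 (SE 0.24).

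**Figure D1:**
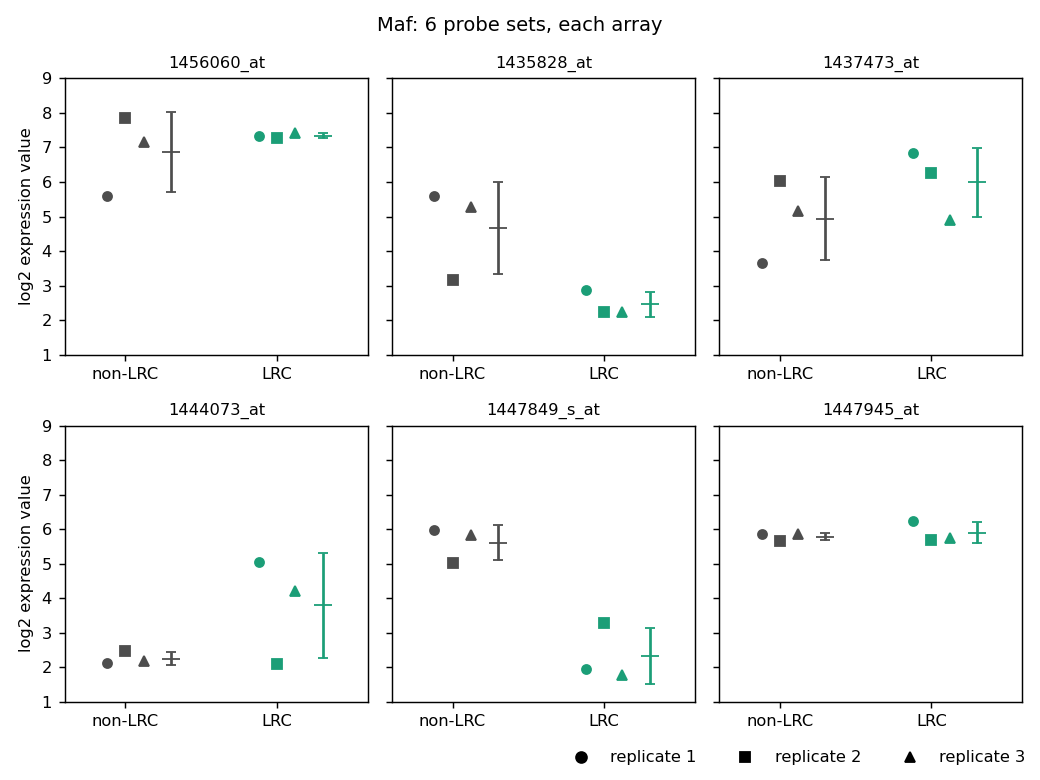
Log2 expression values (vertical axis) of the 6 Maf probe sets in non-LRC and LRC samples; symbols mark replicates 1 to 3, and horizontal ticks with bars the mean and SD of 3 samples. Only 1447849_s_at and 1435828_at have all LRC values below all non-LRC values, and the other 4 overlap.

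Profiles most like that of 1447849_s_at were ranked by the root mean square distance between values centred on their own mean over 6 arrays, among 34939 probe sets of other single genes. Hoxb5os, an antisense transcript of the Hoxb5 locus, was nearest at a distance of 0.239, where the Maf profile itself has a root mean square of 1.73. Its values were 7.69, 6.48 and 7.01 in non-LRC and 3.57, 5.19 and 3.50 in LRC. Like 1447849_s_at, to which it was matched on these same arrays, it was lowest in LRC replicates 1 and 3. Next came Ino80c, a subunit of the INO80 chromatin remodeller (0.586), Prpf38a, a splicing factor (0.592), Prkd1, protein kinase D1 (0.629), and Pdgfrb, a platelet-derived growth factor receptor (0.640). The other probe set of Pdgfrb had the opposite sign. Of the other Maf probe sets, 1435828_at was nearest at 0.924. All 5 named above were closer than that, but they were picked as the nearest of 34939, so this order is no test.

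Bach2, a repressor that holds back myeloid and plasma cell programmes, was the 1 other gene of the family with separated groups, at 1 of 3 probe sets. Probe set 1436515_at read 2.62, 3.90 and 3.58 in non-LRC and 5.38, 4.18 and 5.15 in LRC. Every LRC value lay above every non-LRC value, with LRC replicate 2 closest to the non-LRC range. The probe set was dim, and non-LRC replicate 1 lay below the 25th percentile of its array (2.92). The means were 3.37 ± 0.67 and 4.91 ± 0.64 (SD, n = 3 each), and the LRC mean was higher by 1.54 (SE 0.45), which misses the threshold in limma over all probe sets (adjusted p = 0.998). Removing 1 array at a time gave 1.17 to 1.90, and removing LRC replicates 1 and 3 together gave 0.81. With the control level as a covariate it was 1.04 (SE 0.56).

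The other Bach2 probe sets did not share this. The brightest, 1445460_at, read 6.02, 6.84 and 6.57 in non-LRC and 5.60, 6.87 and 6.71 in LRC, with both extremes in LRC (difference -0.09, SE 0.40, or 0.55 with the control level as a covariate). Probe set 1437667_a_at read 3.86, 4.02 and 3.35 against 3.65, 3.54 and 2.76 (difference -0.43, SE 0.32). Here the groups overlapped and only LRC replicate 3 lay below all non-LRC values.

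Over the family, 3 of 19 probe sets had groups that did not overlap (15.8%), against 8.28% of all 45037. Of these, 2 were lower in LRC, both at Maf, where 3.4% of all probe sets had every LRC value below every non-LRC value. The 1 higher in LRC was at Bach2, where 4.88% of all lay that way. Since Maf was picked for this, the count says nothing of the family as such; among the 13 probe sets of the other 8 genes it was 1. Limma called 0 of 45037 probe sets at an adjusted p under 0.05 (0%), and 0 of the 19. At an unadjusted limma p under 0.05 there were 3 of 19, the same 3, against 3.71% of all probe sets. With 2 of these at Maf, picked for its separated groups, this count is no test either. Among the 13 other probe sets it was 1, at Bach2.

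Among the small Maf genes, Maff, a stress-inducible partner, had the largest difference. It read 9.10, 9.10 and 7.79 in non-LRC and 9.50, 9.07 and 9.17 in LRC. Non-LRC replicate 3 stood below the other 5 arrays, which lay within a narrow range. The difference was 0.58 (SE 0.40, limma adjusted p = 0.998, 95% interval -0.38 to 1.55), and without non-LRC replicate 3 it was 0.15.

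Mafg and Mafk, the small Maf partners best known from red cell and platelet biology, overlapped between groups. The brighter Mafg probe set, 1448916_at, read 7.73, 7.58 and 7.76 in non-LRC and 7.27, 7.43 and 8.12 in LRC (difference -0.08, SE 0.27). LRC spanned the non-LRC values on both sides. The second, 1434054_at, read 6.49, 7.51 and 7.27 against 6.96, 7.18 and 6.18 (difference -0.32, SE 0.38). Mafk read 6.85, 6.66 and 6.43 in non-LRC and 7.36, 6.62 and 6.14 in LRC, a difference of 0.06 (SE 0.34). The wider spread was in LRC, as at Mafg 1448916_at but not at 1434054_at, with replicate 1 highest and replicate 3 lowest of all 6 arrays.

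Bach1 encodes the haem-sensing repressor of Hmox1 and of ferritin genes. Its brighter probe set, 1440831_at, read 7.80, 7.87 and 7.79 in non-LRC and 7.44, 7.73 and 8.47 in LRC. The non-LRC values were almost equal and the LRC values lay to either side of them, so the difference was 0.06 (SE 0.29). At 1449311_at the values were 6.84, 6.58 and 5.73 against 5.86, 6.75 and 3.94, a difference of -0.87 (SE 0.73). It rested on LRC replicate 3, the lowest array, and was -0.08 without it.

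Nfe2, the p45 subunit that megakaryocytes need for platelet release, varied least. It read 9.40, 9.12 and 9.33 in non-LRC and 9.17, 9.47 and 9.37 in LRC. The groups covered nearly the same range, with a difference of 0.05 (SE 0.19, limma adjusted p = 0.998, 95% interval -0.40 to 0.51). The interval leaves out a 2-fold change in either direction, and it also does so for Mafg at 1448916_at (-0.73 to 0.56), Mafk (-0.76 to 0.88), Bach1 at 1440831_at (-0.65 to 0.78), Nfe2l1 (-0.78 to 0.71) and both Nfe2l2 probe sets (-0.32 to 0.79 and -0.86 to 0.81).

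Nfe2l1, also called TCF11, is bound to the endoplasmic reticulum until released and raises proteasome genes when proteasomes fail. It read 7.17, 7.70 and 7.47 in non-LRC and 6.96, 7.31 and 7.96 in LRC (difference -0.04, SE 0.31). LRC held both the lowest and the highest array. Nfe2l2, better known as NRF2, the main activator of antioxidant genes, read 8.29, 8.14 and 7.99 in non-LRC and 8.64, 8.47 and 8.02 in LRC at 1416543_at. Here 2 of the 3 LRC arrays lay above all non-LRC arrays, and the difference was 0.24 (SE 0.23), and 0.10 to 0.41 with any 1 array removed. Its dimmer probe set, 1457117_at, read 5.47, 5.61 and 5.42 against 5.64, 6.03 and 4.75 (difference -0.03, SE 0.35).

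**Figure D2:**
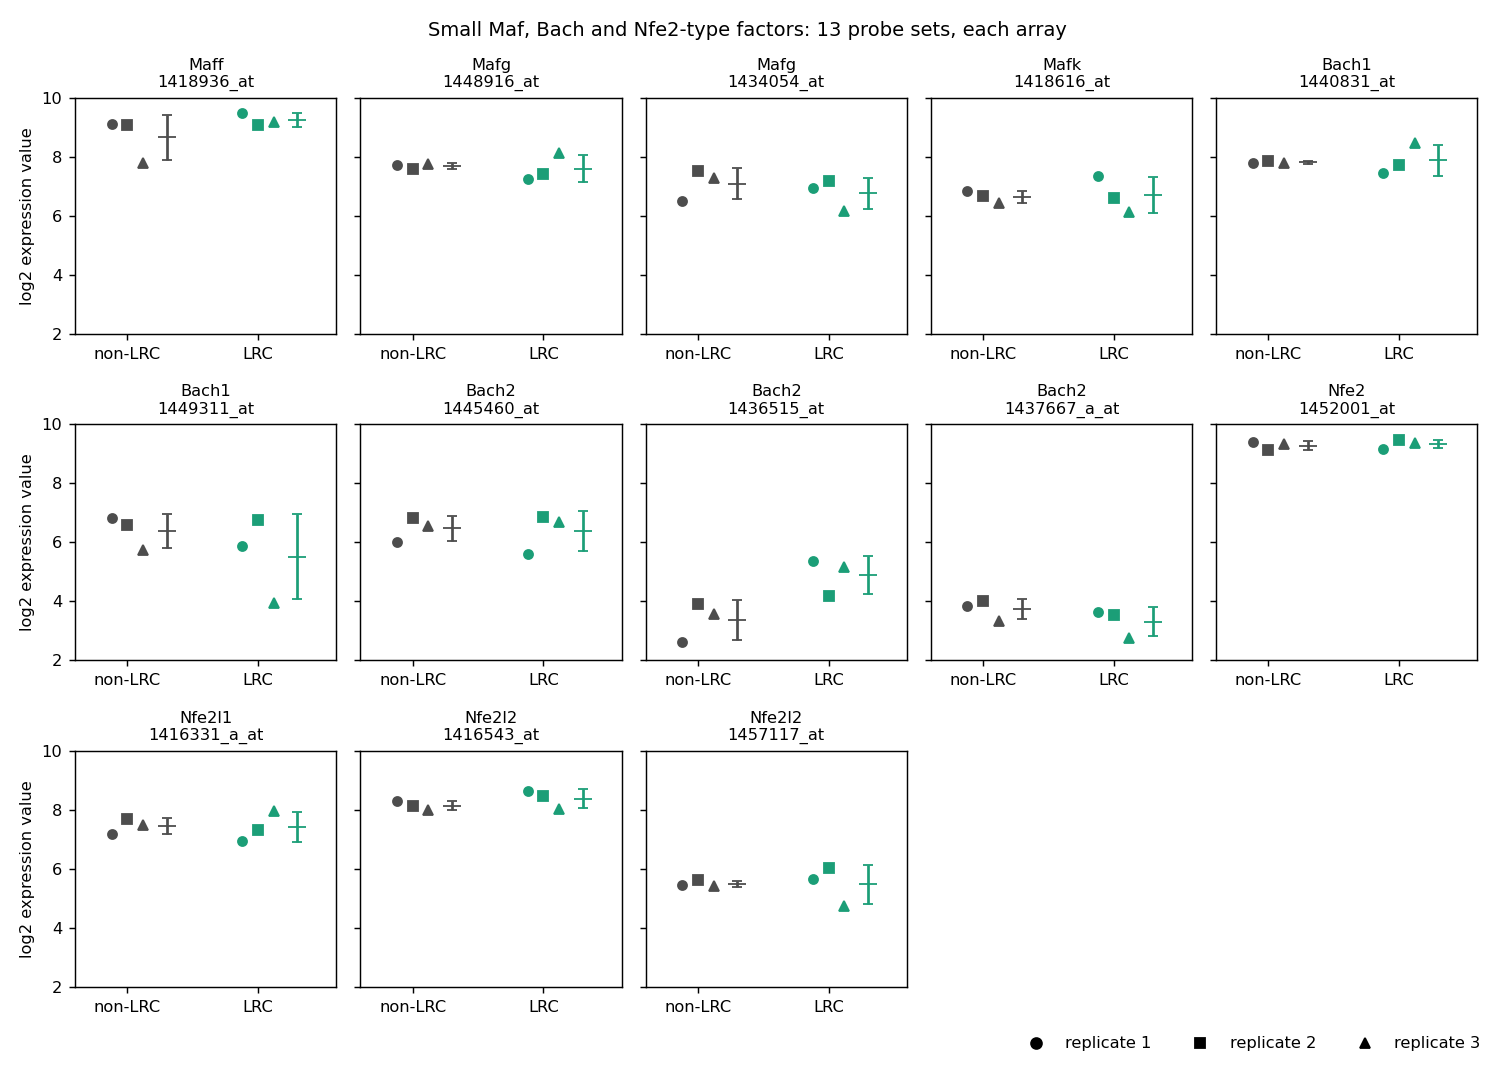
Log2 expression values (vertical axis) of the 13 probe sets of the small Maf, Bach and Nfe2-type genes in non-LRC and LRC samples; symbols mark replicates 1 to 3, and horizontal ticks with bars the mean and SD of 3 samples. Bach2 1436515_at is the 1 panel in which the groups do not overlap.

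Adjusted p-values of the 13 probe sets of these 8 genes lay between 0.998 and 0.999 in limma. With each gene taken at its brightest probe set, differences of the 8 ran from -0.09 (Bach2) to 0.58 (Maff). The median over all 9 genes was 0.06 and that over 18193 genes 0.03. Probe sets of 4 of the 5 genes with several probe sets pointed both ways, all except Mafg.

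**Figure D3:**
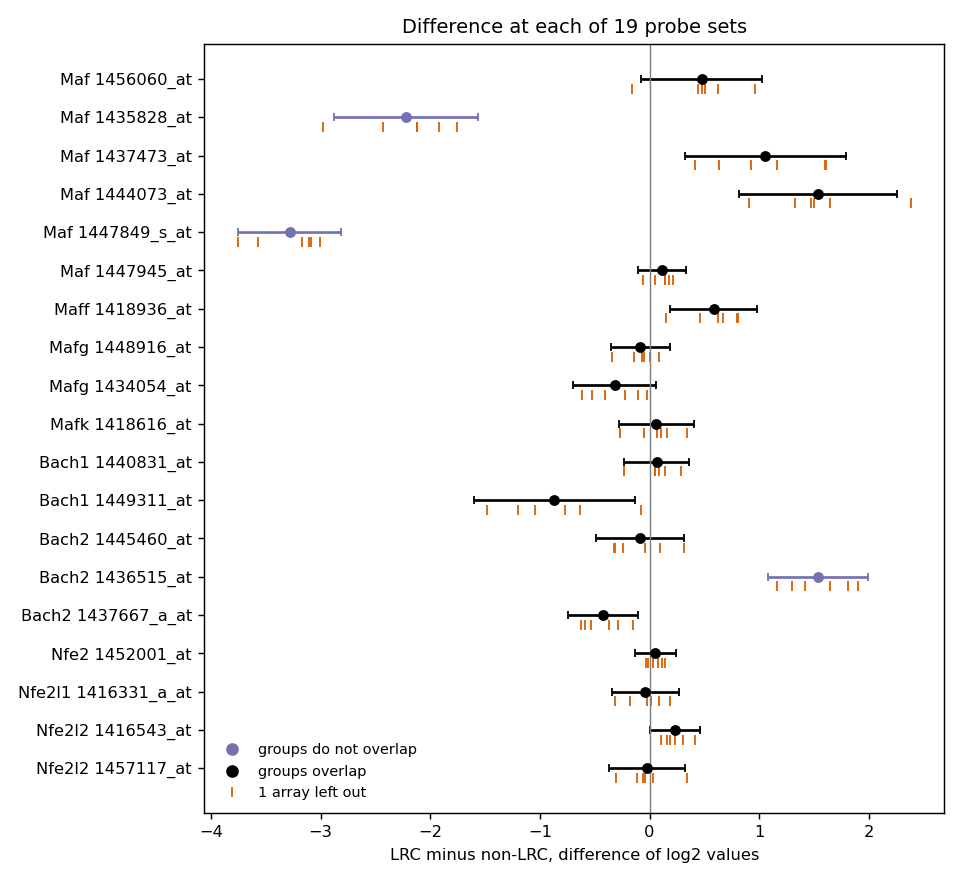
Difference of log2 values, LRC minus non-LRC (horizontal axis), at each of the 19 probe sets, with moderated SE as bars and orange ticks for the difference with 1 array left out. The 3 probe sets in purple, Maf 1447849_s_at, Maf 1435828_at and Bach2 1436515_at, have groups that do not overlap.

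Genes linked to the family were followed in 10 lists, with each gene at its brightest probe set. Dimmer probe sets were left aside, and some had the opposite sign, as at Keap1, Cul3, Fosl2 and Irf8. The lists held 150 different measured genes, of which 0 passed in either direction in limma and 5 had an unadjusted p under 0.05 (3.33%, against 3.75% of all 18193 genes). The LRC mean was lower for 89 of them (59.3%), against 45.1% of all genes. Groups did not overlap for 12 (8.0%), against 8.32% of all 18193 genes. The 2 measured relatives of the family both had a higher LRC mean with overlapping groups: Nfe2l3 read 5.50, 6.74 and 6.83 in non-LRC and 7.93, 6.78 and 6.68 in LRC, and the retinal factor Nrl stayed between 2.10 and 2.84. Nfe2l3 was high on LRC replicate 1 alone.

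Regulators of Nfe2l2 stability gave 12 measured genes with 0 passing, 7 of them with a lower LRC mean (median difference -0.07). Keap1, which presents NRF2 for degradation, read 8.72, 9.27 and 9.94 in non-LRC and 8.50, 9.54 and 9.01 in LRC. Cul3, its ubiquitin ligase scaffold, differed by 0.22 (SE 0.22). The groups were separated at Pgam5, a mitochondrial phosphatase that binds KEAP1, which read 5.69, 6.48 and 6.16 against 6.85, 6.81 and 9.12, and at Gsk3a. At both, LRC replicate 3 was well above the other LRC arrays, and the Gsk3a difference was 0.38 (SE 0.29). Btrc, a ubiquitin ligase subunit that acts on NRF2 apart from KEAP1, differed by -1.05 (SE 0.55) and Trim21 by -0.70 (SE 0.46), both with overlap.

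Antioxidant targets of NRF2 gave 28 measured genes, 0 passing, 18 with a lower LRC mean (median difference -0.13). The classical pair of targets pointed apart. Nqo1, a quinone reductase, read 6.25, 5.97 and 4.88 in non-LRC and 4.13, 5.20 and 5.10 in LRC (difference -0.89, SE 0.46). Hmox1, which degrades haem and is also repressed by Bach1, read 4.76, 3.61 and 3.65 in non-LRC and 6.37, 3.97 and 5.13 in LRC (difference 1.15, SE 0.65). At both genes the groups overlapped, and LRC replicate 1 was the extreme array. Gclc and Gclm, the subunits of the glutathione synthesis enzyme, differed by 0.06 (SE 0.27) and 0.41 (SE 0.25), and Txnrd1, a thioredoxin reductase, by -0.06 (SE 0.27). Slc7a11, the cystine carrier, had separated groups at 2.61, 2.34 and 2.42 in non-LRC and 2.81, 2.72 and 3.96 in LRC. Except on LRC replicate 3, its values lay below the 25th percentile of their array.

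Haem synthesis and Bach1-linked genes gave 15 measured, 0 passing and 9 with a lower LRC mean (median difference -0.09). Uros, uroporphyrinogen synthase, read 6.34, 6.41 and 5.59 in non-LRC and 4.32, 5.58 and 5.09 in LRC. Fech, the last enzyme of the pathway, read 5.39, 7.01 and 7.37 against 7.79, 7.52 and 7.84. Both had separated groups, in opposite directions, with differences of -1.12 (SE 0.39) and 1.13 (SE 0.52). Ppox, protoporphyrinogen oxidase, differed by -1.02 (SE 0.41) with overlap.

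Megakaryocyte and globin genes linked to Nfe2 gave 17 measured, 0 passing and 12 with a lower LRC mean (median difference -0.25). Vwf, von Willebrand factor, read 8.40, 8.97 and 9.16 in non-LRC and 6.38, 8.83 and 7.71 in LRC, a difference of -1.20 (SE 0.61). The 2 LRC arrays below the non-LRC range were replicates 1 and 3, as also at Itga2b, a platelet integrin subunit (difference -0.36, SE 0.24). Ppbp and Hba-a1 were separated with a higher LRC level, but all their values lay between 1.87 and 3.30, near the bottom of the arrays.

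Proteasome genes, the response of Nfe2l1, gave 32 measured, 0 passing and 24 (75.0%) with a lower LRC mean, against 45.1% of all genes (median difference -0.21). Psma7, a core subunit, read 9.47, 9.23 and 9.49 in non-LRC and 8.38, 9.18 and 8.50 in LRC (difference -0.71, SE 0.27), with separated groups. Psma1 (-0.75, SE 0.36), Psmb2 (-0.53, SE 0.27) and Psmd2 (-0.64, SE 0.36) overlapped. The list mean was 8.26, 8.37 and 8.41 in non-LRC and 7.93, 8.43 and 8.05 in LRC. LRC replicates 1 and 3, which carry the bright hybridization controls, were again the low arrays, and LRC replicate 2 was highest of all. Processing factors of Nfe2l1 gave 6 measured and 0 passing, 2 of them with a lower LRC mean. Sel1l and Syvn1, of the degradation machinery of the endoplasmic reticulum, differed by 0.36 (SE 0.23) and 0.61 (SE 0.43). Ngly1, the glycanase that edits Nfe2l1, differed by 0.53 (SE 0.40) and Hcfc1 by -0.39 (SE 0.47). Ddi2, the protease that cuts it, was not analysed here.

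AP-1 and ATF genes, several of which can dimerize with Maf, gave 12 measured and 0 passing (median difference 0.02). Junb (0.31, SE 0.25), Batf (-0.32, SE 0.29), Atf4 (0.20, SE 0.22) and Fosl2 (-0.41, SE 0.48) overlapped. Jund, named after its values were seen because its groups were separated, read 11.89, 11.99 and 11.93 in non-LRC and 12.08, 12.05 and 12.10 in LRC (difference 0.14, SE 0.16).

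Of 14 Bach2-linked genes 0 passed (median difference 0.01). Groups were separated at 2 of them (14.3%, against 8.32% of all genes), 1 in each direction. Bcl6, a repressor that works with Bach2 in B cells, read 4.05, 4.85 and 4.55 in non-LRC and 5.23, 5.52 and 5.07 in LRC (difference 0.79, SE 0.27), all LRC values being the higher. Ikzf1, the lymphoid factor Ikaros, read 8.15, 8.16 and 8.31 in non-LRC and 7.87, 8.06 and 7.54 in LRC (difference -0.38, SE 0.21), all LRC values being the lower, while a second Ikzf1 probe set pointed the other way. Irf8 (-0.42, SE 0.25) and Cebpa (-0.43, SE 0.37), myeloid factors, overlapped. Prdm1, a gene that Bach2 represses, differed by 0.15 (SE 0.19) with values from 2.82 to 3.22. Of 16 genes linked to Maf in lymphocytes and macrophages 0 passed, and the complement gene C1qc was separated at a difference of 0.44 (SE 0.18) with all values at or under 3.47. Anpep (0.70, SE 0.32), Cxcr5 (0.40, SE 0.23) and the scavenger receptor Cd163 (0.81, SE 0.48) overlapped.

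**Figure D4:**
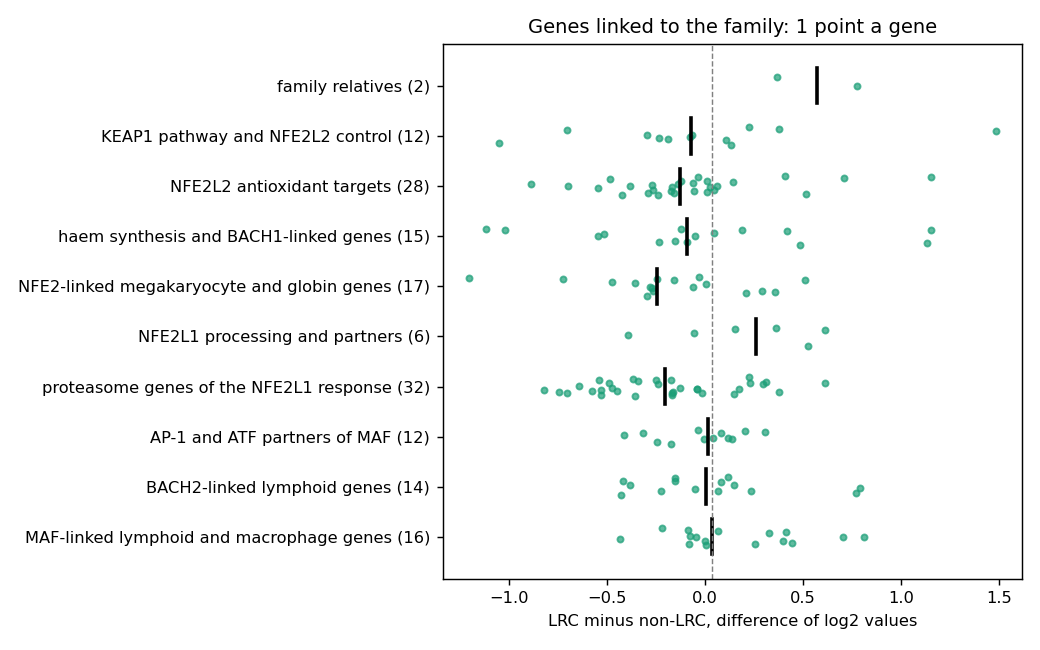
Difference of log2 values, LRC minus non-LRC (horizontal axis), for each measured gene of 10 lists linked to the family, with the number measured in brackets; black bars mark list medians and the dashed line the median over all genes, 0.03. Most points of the proteasome list lie left of zero, 24 of 32.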

How the data were processed

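Per the labels' protocols, total RNA underwent 2 amplification rounds (Nugen WT-Ovation Pico) and was biotin-labelled and hybridized to 1 array per sample. The deposited values are log2 expression values, with RMA named in the submitters' processing notes; software and background model are not given in sources used here, and log2 was inferred from the values' span. RMA equalizes the arrays' distributions, so a change in total RNA cannot be seen. Arrays have no read depth, and their number limits precision.

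Of 45101 probe sets, 64 controls were left out. A single gene symbol was given for 34945, several for 932 and none for 9160; symbols were brought up to date by gene ID with RefSeq (GRCm38.p6). The test was limma 3.58.1 (R 4.3.3; lmFit and eBayes without covariates), with Benjamini-Hochberg adjustment over all 45037. Nothing says that samples came from separate mice beyond being called independent, so p-values measure the spread between these samples.

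The members, the lists and the tests were chosen with earlier results of these data known. Every probe set of the 9 genes is given; of each linked list, taken from general knowledge, the 4 genes (or fewer) of smallest p and a fixed few were named, and Jund besides. The fit was tested on simulated data, with 50 probe sets changed at each size. It recovered 0% of log2 changes of 1, 30% of 2, 60% of 3 and 82% of 4, with 3 false calls. A count of 0 passing thus does not show that levels were equal. Other settings were a further quantile normalization, median centring, a filter at the 40th percentile, array weights, moderation with trend and robust, a replicate block, hybridization control level as covariate, other thresholds, the mean of a gene's probe sets and leaving out single arrays. Leaving out both LRC arrays with bright controls was added after the data were seen.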

Additional observations from a re-analysis of the deposited data

How the results depend on the processing

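Limma called 0 probe sets under each alternative that kept the adjusted threshold of 0.05 or raised it to 0.1, and 0 of the 150 linked genes. Asking instead for 2-fold or more and an unadjusted p below 0.05 gave 774 of 45037 probe sets. The count of family probe sets with separated groups was 3 to 8 when single arrays were left out (15.9% to 25.4% of all probe sets then). It was 8 of 19 without LRC replicate 3 (16.2% of all) and 5 of 19 without LRC replicate 2 (25.4% of all). It was 11 without LRC replicates 1 and 3 (47.2% of all), where only 1 LRC array is set against 3. Of 19 probe sets 7 kept 1 sign under every setting that could be run, among them Maf 1447849_s_at (-3.75 to -2.34), Maf 1435828_at (-2.98 to -1.76) and Bach2 1436515_at (0.81 to 1.90). The other 12 took the opposite sign under at least 1 setting, in 33 of 263 pairs of probe set and setting. For Maf, Bach1 and Bach2 the mean of all probe sets had the opposite sign to the brightest.

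With the replicate number as a block (replicate block), limma called 0 probe sets. Samples of the same number correlated at 0.08, 0.14 and 0.08 in their deviations from group means. Those of different number all correlated below zero, at -0.09 to -0.01. The numbers were not taken as pairs because not all of the same number were above 0.1, although each LRC array correlated best with its own number. With the block, the SE was 0.56 at Maf 1447849_s_at, 0.49 at Maf 1435828_at and 0.53 at Bach2 1436515_at. Values near the bottom of the range bound the size of the Maf differences poorly.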
